A study of Homo sapiens with 148 samples.

Results

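The genes described here build, load and regulate MHC class I, the surface complex that displays peptides from inside the cell to CD8+ T cells. They are the heavy chain genes HLA-B, HLA-C, HLA-E and HLA-G, the light chain gene B2M, the peptide transporter subunit TAP1, the loading factor TAPBP, the immunoproteasome subunit PSMB9 and the transcriptional activator NLRC5. The 9 genes were taken by name from a table of mean expression that lists 49085 gene names. All 9 were found, each as a single entry, and 6 of them had a mean of 1 TPM or more over the stages, while HLA-G, PSMB9 and NLRC5 did not. TPM is a length-corrected measure of transcript abundance that sums to a fixed total in each sample. The length correction lets levels of different genes be compared within a sample, while the fixed total limits comparison between stages.

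The study followed H9 cells, an established line of human embryonic stem cells (hESCs), through directed differentiation to pancreatic islet organoids. RNA-seq covered 6 stages with 2 samples each, 12 of the 148 samples in the series. The stages were undifferentiated H9 hESCs, definitive endoderm (DE) at day 4, primitive gut tube-like cells (PGT) at day 7, pancreatic progenitors (PP) at day 14, organoids with β cells made from the stem cells (SC-β organoids) at day 35, and a stage labelled PH, for which the labels give no day and neither they nor the study's text give a meaning. All 12 samples were wild type and, apart from hESCs, had been put through the pancreatic differentiation protocol; every stage derives from this 1 cell line, so its HLA alleles are shared by all groups. The deposited table holds a single mean TPM for each gene and stage. The spread between the 2 samples cannot be computed from it, so the values below carry no error and no test, and whether any difference exceeds the replicate spread is unknown; the read depth behind a value is unknown as well.

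A class I molecule is a heavy chain paired with β2-microglobulin around a short peptide. Proteasomes cut proteins into peptides, the TAP1 and TAP2 transporter moves the peptides into the endoplasmic reticulum, and tapasin, the product of TAPBP, holds empty class I molecules to the transporter until a peptide binds. Interferons raise the whole pathway through factors such as IRF1 and exchange catalytic proteasome subunits for PSMB8, PSMB9 and PSMB10, while NLRC5 drives class I genes through a conserved promoter module. Pluripotent stem cells are known for low class I display, and in type 1 diabetes β cells are targets of CD8+ T cells that recognise class I.

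In the GENCODE version 44 annotation of hg38, 7 of the 9 genes lie in the MHC on chromosome 6. HLA-G (ENSG00000204632.13) spans chr6:29826967-29831125 on the plus strand and HLA-E (ENSG00000204592.9) spans chr6:30489509-30494194 on the plus strand. HLA-C (ENSG00000204525.18, chr6:31268749-31272130) and HLA-B (ENSG00000234745.14, chr6:31353872-31367067) are neighbours on the minus strand. TAP1 (ENSG00000168394.13, chr6:32845209-32853816, minus strand) overlaps PSMB9 (ENSG00000240065.8, chr6:32844136-32859851, plus strand), and the RefSeq starts of this divergent pair are 488 bases apart. TAPBP (ENSG00000231925.14) lies at chr6:33299694-33314284 on the minus strand. The other two are B2M (ENSG00000166710.23) at chr15:44711358-44718851 and NLRC5 (ENSG00000140853.17) at chr16:56989485-57083531, both on the plus strand. HLA genes are close paralogs and highly variable between people, and the reads were aligned to reference alleles, so reads may have been divided among HLA genes or lost; PSMB9 also overlaps TAP1 and PSMB8 on the other strand, and whether counting used strand is not given in the sources used here.

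The promoters are shown as a description of these genes, and short motifs, including a response element for interferon, were searched for in the windows. The whole promoter module through which NLRC5 acts was not searched for, and whether the motifs bear on the stage levels was not tested. Each line gives the 250 bases before a RefSeq transcription start (build GRCh38.p14), 5′ to 3′ on the strand of the gene, with capitals for matches on either strand to the interferon-stimulated response element (ISRE; GAANNGAAA or GAAANNGAAA), the NF-κB consensus, the CCAAT box (CCAAT) and the core of the cAMP response element (CRE core; TGACG). The windows are chr6:31357180-31357429 for HLA-B, chr6:31272093-31272342 for HLA-C, chr15:44711267-44711516 for B2M, chr6:33314079-33314328 for TAPBP and chr6:32853705-32853954 for the first of the TAP1 windows; B2M is on the plus strand and the others are on the minus strand.
HLA-B: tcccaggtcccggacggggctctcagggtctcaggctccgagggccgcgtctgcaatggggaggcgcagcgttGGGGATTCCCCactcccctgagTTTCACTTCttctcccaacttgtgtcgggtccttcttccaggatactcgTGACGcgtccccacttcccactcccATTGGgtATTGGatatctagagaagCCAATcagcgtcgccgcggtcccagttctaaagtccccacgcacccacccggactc
HLA-C: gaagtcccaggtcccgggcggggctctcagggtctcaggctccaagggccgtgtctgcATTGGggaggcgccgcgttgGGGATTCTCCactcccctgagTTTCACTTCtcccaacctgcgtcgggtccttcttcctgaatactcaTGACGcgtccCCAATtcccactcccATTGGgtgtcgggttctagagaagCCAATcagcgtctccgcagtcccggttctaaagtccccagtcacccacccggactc
B2M: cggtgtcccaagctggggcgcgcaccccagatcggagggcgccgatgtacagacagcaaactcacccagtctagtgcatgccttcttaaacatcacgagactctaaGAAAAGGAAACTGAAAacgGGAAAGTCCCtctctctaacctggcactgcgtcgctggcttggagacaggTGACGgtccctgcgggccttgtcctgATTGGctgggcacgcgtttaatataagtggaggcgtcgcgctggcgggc
TAPBP: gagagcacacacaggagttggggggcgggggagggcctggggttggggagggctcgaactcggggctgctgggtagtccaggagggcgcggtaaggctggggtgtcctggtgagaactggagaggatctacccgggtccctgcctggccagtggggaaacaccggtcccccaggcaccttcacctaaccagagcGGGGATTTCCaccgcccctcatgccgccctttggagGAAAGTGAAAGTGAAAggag
TAP1: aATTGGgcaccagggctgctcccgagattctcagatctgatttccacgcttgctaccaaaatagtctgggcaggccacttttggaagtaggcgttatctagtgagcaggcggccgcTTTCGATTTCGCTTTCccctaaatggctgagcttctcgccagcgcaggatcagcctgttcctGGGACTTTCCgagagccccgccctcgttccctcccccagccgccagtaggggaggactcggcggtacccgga

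The RefSeq table held windows for 7 of the 9 genes and none for HLA-E or NLRC5. HLA-B and HLA-C were identical at 91.9% of 246 aligned promoter bases, and HLA-G was identical at 85.3% of aligned bases to HLA-B and at 86.6% to HLA-C. HLA-B and HLA-C each held GAANNGAAA once, read on the opposite strand, with its first letter 155 bases before the start in HLA-B and 151 bases before it in HLA-C. B2M, TAPBP and TAP1 each held GAAANNGAAA as 2 overlapping matches. In TAPBP these lay 20 and 14 bases before the start, in B2M 144 and 138 bases, and in TAP1 134 and 128 bases. Of all 35116 promoter windows of this length, 6.56% held GAANNGAAA, 3.02% held GAAANNGAAA and 9.08% held either. The NF-κB consensus was present in 6 of the 7 genes and in 9.96% of all windows. The CCAAT box was present in 6 of the 7, all but TAPBP, and in 32.0% of all windows. Its matches in TAP1 and PSMB9 are the same bases, because the windows of this pair overlap. A gene was counted if any of its windows held a match, whereas the shares are of single windows. HLA-G and TAP1 had more than 1 window, and HLA-G held both motifs in 1 of its windows only. The CRE core was present in 4 of the 7 genes (HLA-B, HLA-C, B2M and PSMB9) and in 21.2% of all windows, and the gamma-activated site TTCNNNGAA in 1 of the 7, in the second TAP1 window, and in 6.57% of all windows. A match to these letters describes the window and does not show that a factor binds; the letters were chosen after the windows had been seen.

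Before the class I genes, the stage names were checked against markers. POU5F1, a pluripotency factor, stood at 1449 TPM in hESCs but 25.4 TPM by PGT. SOX17, an endoderm factor, was highest in DE at 96.1 TPM. The gut endoderm factor HNF4A was highest in PGT at 33.7 TPM and the pancreatic factor PDX1 was highest in PP at 3.17 TPM. INS reached 298 TPM, GCG 2793 TPM and CHGA 805 TPM in SC-β organoids, so the hormone of α cells was listed above that of β cells there. PH listed PDX1 at 0.0173 TPM and a sum of 774 TPM over 7 neural markers, the highest of any stage, against 95.5 TPM in PP.

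HLA-B and HLA-C, the classical heavy chains that present peptides to CD8+ T cells, were highest in PGT and lowest in PH. HLA-B was at 52.7 TPM in hESCs, 152 TPM in DE, 577 TPM in PGT, 37.2 TPM in PP, 23.3 TPM in PH and 28.1 TPM in SC-β organoids. PGT stood apart for this gene, 3.80 times the next stage, and PP, PH and SC-β organoids were all below hESCs. HLA-C was at 49.6 TPM in hESCs, 130 TPM in DE, 183 TPM in PGT, 64.6 TPM in PP, 37.6 TPM in PH and 44.7 TPM in SC-β organoids. Its order of stages was like that of HLA-B at the top, but over a narrower range, 4.88-fold from lowest to highest against 24.7-fold for HLA-B. HLA-B and HLA-C were near each other in hESCs, with a ratio of 1.06, and parted in PGT, where the ratio was 3.15; in PP, PH and SC-β organoids HLA-C was the higher of the pair, at ratios of 0.576, 0.621 and 0.628. In bulk RNA, a change in the share of cells that express a gene and a change in its RNA per cell cannot be told apart.

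On the scale log2((TPM + 1) / (TPM in the reference stage + 1)), used for every log2 ratio here, HLA-B in PGT was 3.43 above hESCs, rank 231 from the top among the 21679 names with a mean of 1 TPM or more. From PGT to PP it was lower by a log2 ratio of -3.92, rank 32 from the bottom of the same names. HLA-C in PGT was 1.87 above hESCs and its log2 ratio from PGT to PP was -1.49. The next-highest levels of the pair were in DE, at log2 ratios of 1.51 for HLA-B and 1.37 for HLA-C against hESCs. In PH the log2 ratio of HLA-B to hESCs was -1.14, which became -0.80 when stage totals were recomputed without structural RNAs.

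**Figure D1:**
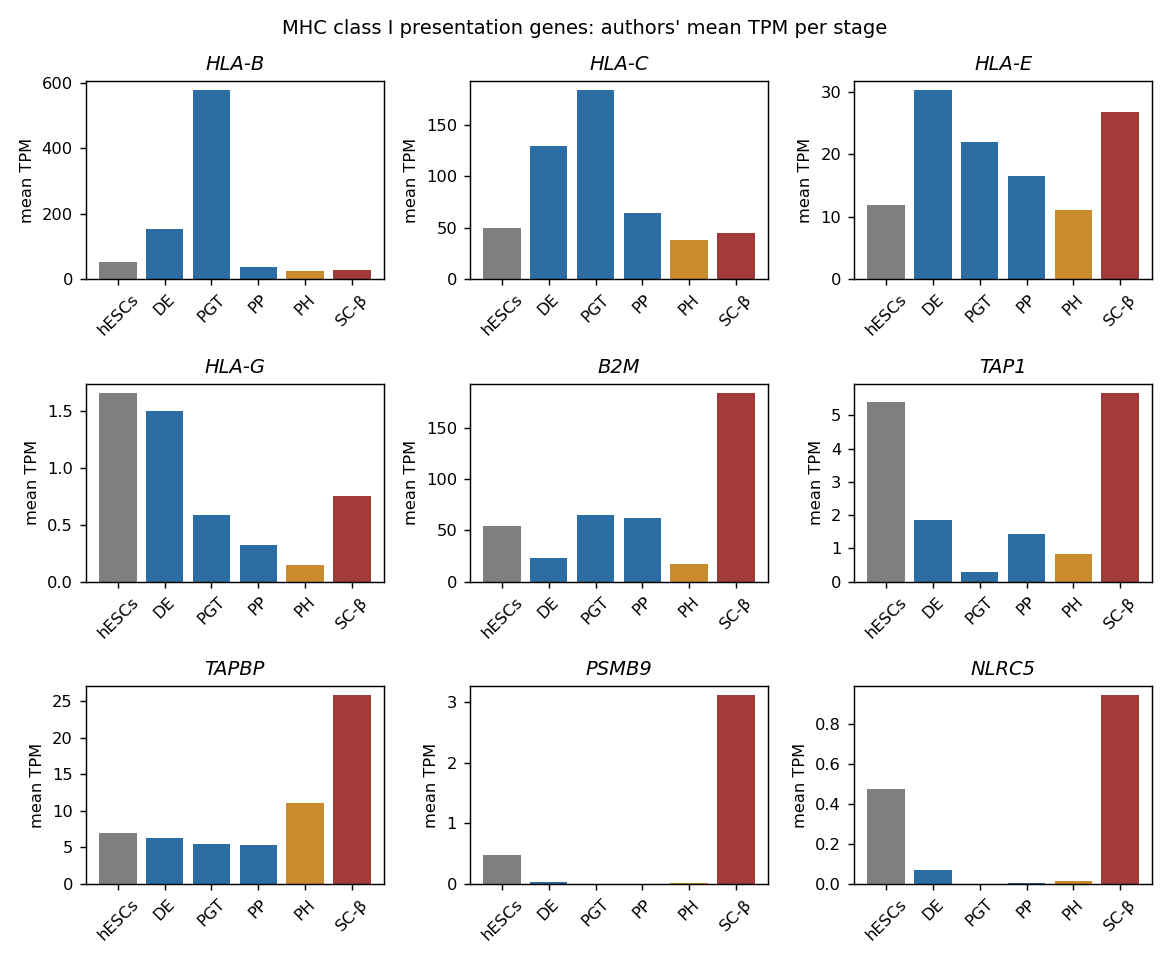
Mean TPM (linear axis from 0, a scale of its own in each panel) of the 9 genes in the 6 stages; each bar is the authors' mean of 2 samples, without an error. HLA-B (577 TPM) and HLA-C (183 TPM) are highest in PGT, whereas B2M (184 TPM), TAPBP (25.8 TPM) and PSMB9 (3.11 TPM) are highest in SC-β organoids and TAP1 is lowest in PGT (0.273 TPM).

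HLA-E and HLA-G are non-classical heavy chains: HLA-E displays leader peptides of other class I chains to receptors of natural killer cells, and HLA-G is known from trophoblast. HLA-E was at 11.9 TPM in hESCs, 30.2 TPM in DE, 21.9 TPM in PGT, 16.5 TPM in PP, 11.1 TPM in PH and 26.7 TPM in SC-β organoids. Its range of 2.72-fold was the narrowest among the 9 genes, with DE and SC-β organoids highest and no peak in PGT. HLA-E equalled 2.89% of HLA-B and HLA-C together in PGT and 36.7% in SC-β organoids. HLA-G was at 1.66 TPM in hESCs, 1.50 TPM in DE, 0.586 TPM in PGT, 0.319 TPM in PP, 0.141 TPM in PH and 0.756 TPM in SC-β organoids. All 6 stages had it below 2 TPM, and it was at most 1.62% of HLA-B and HLA-C together. The 6 trophoblast markers summed to between 2.37 TPM (PP) and 4.67 TPM (SC-β organoids).

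B2M, the light chain that every class I heavy chain needs, did not follow HLA-B and HLA-C. It was at 53.9 TPM in hESCs, 22.6 TPM in DE, 65.0 TPM in PGT, 62.1 TPM in PP, 17.6 TPM in PH and 184 TPM in SC-β organoids. SC-β organoids stood 2.84 times above the next stage, and DE and PH were the low stages. Against hESCs the log2 ratio was -1.22 in DE, -1.56 in PH and 1.76 in SC-β organoids; in PGT and PP it was 0.26 and 0.20, and both turned slightly negative, -0.07 and -0.05, when stages were rescaled by their median ratio. DE thus held less B2M and more HLA-B and HLA-C than hESCs.

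The ratio of heavy chain to light chain RNA does not depend on the stage total. HLA-B and HLA-C summed to 1.90 times B2M in hESCs, 12.5 times in DE, 11.7 times in PGT, 1.64 times in PP, 3.46 times in PH and 0.394 times in SC-β organoids. The heavy chains exceeded B2M in every stage but SC-β organoids, where B2M was 2.54 times their sum. Between DE and SC-β organoids this ratio differed 31.6-fold.

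**Figure D2:**
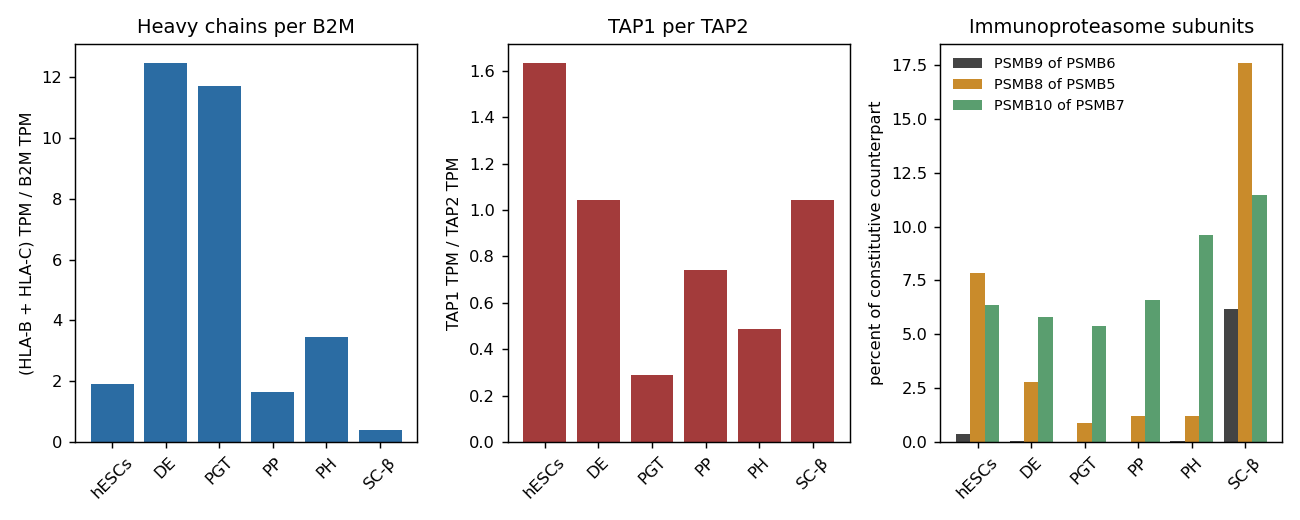
Ratios of TPM within each stage (linear axes from 0; each bar is a ratio of the authors' means): HLA-B plus HLA-C over B2M, TAP1 over TAP2, and each immunoproteasome subunit as a percent of the constitutive subunit it replaces. Heavy chains per B2M are highest in DE (12.5) and PGT (11.7), TAP1 per TAP2 is lowest in PGT (0.288), and PSMB8 (17.6%) and PSMB9 (6.20%) are highest in SC-β organoids.

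TAP1 was lowest in PGT, the stage where HLA-B was highest. TAP1, which forms the peptide transporter with TAP2, was at 5.41 TPM in hESCs, 1.86 TPM in DE, 0.273 TPM in PGT, 1.43 TPM in PP, 0.840 TPM in PH and 5.67 TPM in SC-β organoids. The levels in hESCs and SC-β organoids lay within 1.05-fold of each other, and the other 4 stages were lower, PGT 20.8-fold below SC-β organoids. Its log2 ratio to hESCs was -1.16 in DE, -2.33 in PGT, -1.40 in PP, then -1.80 in PH; that of SC-β organoids was 0.06 and took a negative sign under all 3 rescalings, down to -0.39. HLA-B was 9.74 times TAP1 in hESCs, 2113 times in PGT and 4.95 times in SC-β organoids. TAP1 was 1.63 times TAP2 in hESCs, 0.288 times in PGT and 1.05 times in SC-β organoids, so the 2 transporter subunits had no fixed ratio.

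TAPBP encodes tapasin. It was at 7.03 TPM in hESCs, 6.33 TPM in DE, 5.54 TPM in PGT, 5.30 TPM in PP, 11.1 TPM in PH and 25.8 TPM in SC-β organoids. hESCs, DE, PGT and PP lay close together and SC-β organoids were 2.33 times the next stage. Against PP the log2 ratio was 2.09 in SC-β organoids and 0.94 in PH; the PH value passed 2-fold, at 1.05 to 1.22, under the lower pseudocount and the 3 rescalings.

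PSMB9, an interferon-inducible catalytic subunit that takes the place of PSMB6, was at 0.482 TPM in hESCs, 0.0409 TPM in DE, 0.0188 TPM in PH and 3.11 TPM in SC-β organoids, and was listed at 0 in PGT and PP. SC-β organoids were 6.45 times the next stage, hESCs. PSMB9 equalled 0.352% of PSMB6 in hESCs and 6.20% in SC-β organoids. Of the other 2 exchanged subunits, PSMB8 equalled 7.83% of PSMB5 in hESCs, 0.866% in PGT and 17.6% in SC-β organoids. PSMB10 equalled 6.36% of PSMB7 in hESCs, 5.37% in PGT, 9.61% in PH and 11.5% in SC-β organoids. The level of PSMB10 was 14.3 TPM in hESCs and 14.9 TPM in SC-β organoids, while PSMB7 was at 225 TPM and 129 TPM. NLRC5, the class I activator, was at 0.473 TPM in hESCs, 0.0711 TPM in DE, 0.00314 TPM in PP, 0.0143 TPM in PH and 0.943 TPM in SC-β organoids, and was listed at 0 in PGT. It was below 1 TPM in all 6 stages. For PSMB9 and NLRC5 the pseudocount sets the size of a log2 ratio: in DE and PH it lay between -0.46 and -0.54 for both genes, but with a pseudocount of 0.1 TPM it was -2.05 and -2.29 for PSMB9 and -1.74 and -2.33 for NLRC5.

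Read together, the 9 genes formed no common profile. A count of genes at least 2-fold from the reference is given with the same share over the 21679 names as a background; the 3 low genes are counted although they are not among those names. In DE, HLA-B, HLA-C and HLA-E were at least 2-fold above hESCs, 3 of 9 against 25.8% of names, and B2M and TAP1 at least 2-fold below, 2 of 9 against 4.86%. In PGT, HLA-B and HLA-C were above, 2 of 9 against 21.3%, and TAP1 below, 1 of 9 against 8.47%. In PP, 0 of 9 were above, against 17.2%, and HLA-G and TAP1 below, 2 of 9 against 7.75%. In PH, 0 of 9 were above, against 23.4%, and HLA-B, HLA-G, B2M and TAP1 below, 4 of 9 against 17.1%. In SC-β organoids, HLA-E, B2M, TAPBP and PSMB9 were above, 4 of 9 against 40.0%, and 0 of 9 below, against 7.05%. The share above hESCs in SC-β organoids was thus near the background.

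Against PP, the stage from which the organoids are grown, SC-β organoids had B2M (log2 ratio 1.56), TAP1 (1.46), TAPBP (2.09) and PSMB9 (listed at 0 in PP) at least 2-fold higher, 4 of 9 against 18.0% of names, and 0 of 9 at least 2-fold lower, against 1.89%. HLA-B and HLA-C did not join them, with log2 ratios of -0.39 and -0.52, and HLA-E was at 0.66. NLRC5 was at 0.95, under 2-fold, and passed it at 3.34 with a pseudocount of 0.1 TPM, at 1.29 without structural RNAs and at 1.50 without the 100 most abundant names. HLA-G, below 1 TPM in both stages, passed it at 1.03 with the lower pseudocount. PH against PP had 0 of 9 higher, against 8.81%, and B2M lower at a log2 ratio of -1.76, 1 of 9 against 12.2%. The median log2 ratio of the 9 genes to hESCs was -0.13 in DE, -0.30 in PGT, -0.49 in PP, -0.54 in PH and 0.40 in SC-β organoids, and the median of all names was 0.50, 0.36, 0.30, 0.18 and 0.72 in the same stages. Against PP the members' median was 0.95 in SC-β organoids, with 0.36 over all names, and -0.40 in PH, with -0.14 over all names. These comparisons share their reference stage.

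TPM has a fixed total, and structural RNAs such as RN7SK held from 33.3% of it in DE to 52.5% in PH. The median ratio of commonly expressed genes lay above hESCs by 0.48 in DE, 0.34 in PGT, 0.25 in PP, 0.03 in PH and 0.52 in SC-β organoids on the log2 scale. With stages rescaled by it, HLA-C (0.89) and HLA-E (0.81) were no longer 2-fold above hESCs in DE, HLA-E (0.61) was no longer so in SC-β organoids, and HLA-B (-1.39) was then 2-fold below hESCs in SC-β organoids.

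**Figure D3:**
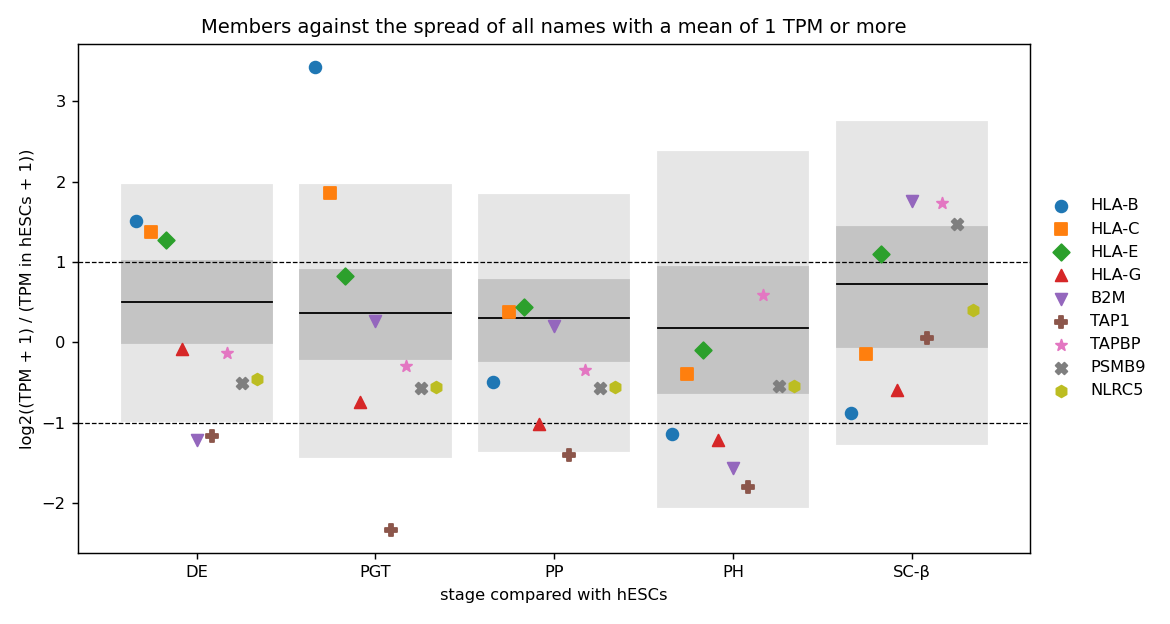
Log2 ratio to hESCs (pseudocount 1 TPM) of the 9 genes in the 5 stages other than hESCs; dark and light grey boxes span the central 50% and 90% of the 21679 names with a mean of 1 TPM or more, the black line is their median and dashed lines mark 2-fold. HLA-B in PGT (3.43) lies above the light box and TAP1 in PGT (-2.33) below it, while all points of SC-β organoids lie inside.

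Over the 6 stages, Pearson's r of log2(TPM + 1) exceeded 0.8 in 4 of the 36 pairs of these genes and was negative in 11. The 4 pairs were HLA-B with HLA-C (0.959), PSMB9 with NLRC5 (0.957), TAP1 with NLRC5 (0.892) and TAPBP with PSMB9 (0.884). These are descriptions over 6 means that share their libraries and scaling, and HLA-B and HLA-C may also share reads. The mean profile of the 6 genes with a mean of 1 TPM or more was most like TMEM98 (r = 0.984), PTPRK (0.981), RPL13AP7 (0.965), RGS5 (0.961) and CTC-451P13.1 (0.960) among 4651 names with a mean of 10 TPM or more and an SD of log2(TPM + 1) of 0.5 or more. ARF6, WIPI1, TRAM2, NFXL1 and CHKA completed the 10 most alike, 45 names had r above 0.9, and 3 of the 10 stayed among the 10 with a pseudocount of 0.1 TPM and 4 with Spearman's rho. The class I genes described here were left out of this ranking before the 10 were taken, so their absence from the 10 is not a result.

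The rest of the peptide loading and trimming machinery was examined as a list of 9 genes that includes TAP1 and TAPBP. In SC-β organoids, 4 of 9 were at least 2-fold above hESCs (TAPBP, TAPBPL, ERAP1 and ERAP2) and 0 below, against 40.0% and 7.05% of all names, so the share above was near the background. TAPBPL, which encodes a tapasin-related peptide editor, stood at 0.665 TPM in hESCs against 6.25 TPM in SC-β organoids, and ERAP1, a peptidase that trims peptides in the endoplasmic reticulum, at 8.97 and 37.4 TPM. The general chaperone CALR, the most abundant of the list, was at 571 and 581 TPM. In DE, PGT, PP and PH, 0 of 9 were above hESCs, against 25.8%, 21.3%, 17.2% and 23.4% of all names. TAP1 was below in DE, 1 of 9 against 4.86%, and in PP, 1 of 9 against 7.75%. TAP1 and TAP2 were below in PGT, 2 of 9 against 8.47%. TAP1 and PDIA3 were below in PH, 2 of 9 against 17.1%.

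The constitutive proteasome was lower instead. None of the 14 constitutive core subunits was 2-fold above hESCs in any stage, and the number 2-fold below was 0 in DE, 2 in PGT, 3 in PP, 11 in PH and 7 in SC-β organoids. The share of all names 2-fold below hESCs was 4.86%, 8.47%, 7.75%, 17.1% and 7.05% in the same order. The share 2-fold above was 25.8%, 21.3%, 17.2%, 23.4% and 40.0%. PSMB6, which PSMB9 replaces, was at 137 TPM in hESCs as against 50.1 TPM in SC-β organoids. With the median-ratio rescaling the number below was 12 in both PH and SC-β organoids, but the shares of all names were computed without rescaling. Of the 5 immunoproteasome genes, PSMB8 was the one 2-fold below hESCs in DE, PGT, PP and PH, 1 of 5 each time. PSMB9 was the one above in SC-β organoids, 1 of 5 against 40.0% of all names. PSMB8 was at 6.10 TPM in hESCs, 0.480 TPM in PGT and 8.49 TPM in SC-β organoids, in the same order of the 6 stages as its neighbour TAP1. The PSME1 regulator, the most abundant of the list, stayed between 32.6 TPM in PH and 51.5 TPM in DE.

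Among 13 regulators of class I genes, IRF1, the interferon-induced activator that binds the ISRE, had the largest log2 ratio in SC-β organoids, 2.39. It was at 2.79 TPM in hESCs, 3.76 TPM in DE, 1.46 TPM in PGT, 1.26 TPM in PP, 1.50 TPM in PH and 18.8 TPM in SC-β organoids. IRF1, RFXAP, NFYC and NFKB1 were 2-fold above hESCs there, 4 of 13 against 40.0% of all names. With median-ratio rescaling 1 of 13 was, but the 40.0% was computed without rescaling. In PGT, 1 of 13 was 2-fold higher, the NF-κB subunit RELA at 17.8 TPM against 7.68 TPM in hESCs, and 0 lower, where 21.3% and 8.47% of all names were. The RFX subunit RFXANK, the factor NFYB and the other RFX and NF-Y genes were listed at 2.93 TPM or more in every stage.

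Interferon genes themselves were listed at low levels. IFNG was at most 0.00838 TPM, in PGT, IFNB1 at most 0.179 TPM, in SC-β organoids, and the highest of the 6 ligands found was IFNK, at 0.642 TPM in hESCs and 5.15 TPM in SC-β organoids. Receptors and signal transducers were present in all stages. Of 11 genes, 6 were 2-fold above hESCs in SC-β organoids (IFNAR1, JAK1, JAK2, TYK2, STAT2 and IRF9), against 40.0% of all names. SOCS1, a feedback inhibitor, was below, against 7.05%. With median-ratio rescaling the number above was 2, but the 40.0% was computed without rescaling. IRF9 was at 4.74 TPM in hESCs as against 36.9 TPM in SC-β organoids.

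Of 25 interferon-stimulated genes, 11 were 2-fold above hESCs in SC-β organoids and 4 below, against 40.0% and 7.05% of all names. Against PP, 13 of 25 were higher and 0 lower, against 18.0% and 1.89%, and the median log2 ratio was 1.09, with 0.36 over all names. GBP1 was at 0.0666 TPM in hESCs, 0.925 TPM in PP but 9.43 TPM in SC-β organoids, and IFI44L, at 0 in hESCs, reached 16.2 TPM in SC-β organoids. The genes of this list differed among themselves: IFITM1, a membrane protein that restricts virus entry, was at 977 TPM in hESCs, 3.02 TPM in PGT and 56.8 TPM in SC-β organoids. BST2 was highest in DE, at 54.6 TPM, and stood at 0.595 TPM in SC-β organoids. In PGT, 1 of 25 was 2-fold above hESCs (IFI27) and 8 were below, against 21.3% and 8.47% of names. In DE the numbers were 2 and 7, against 25.8% and 4.86%, in PP 4 and 7, against 17.2% and 7.75%, and in PH 4 and 8, against 23.4% and 17.1%.

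**Figure D4:**
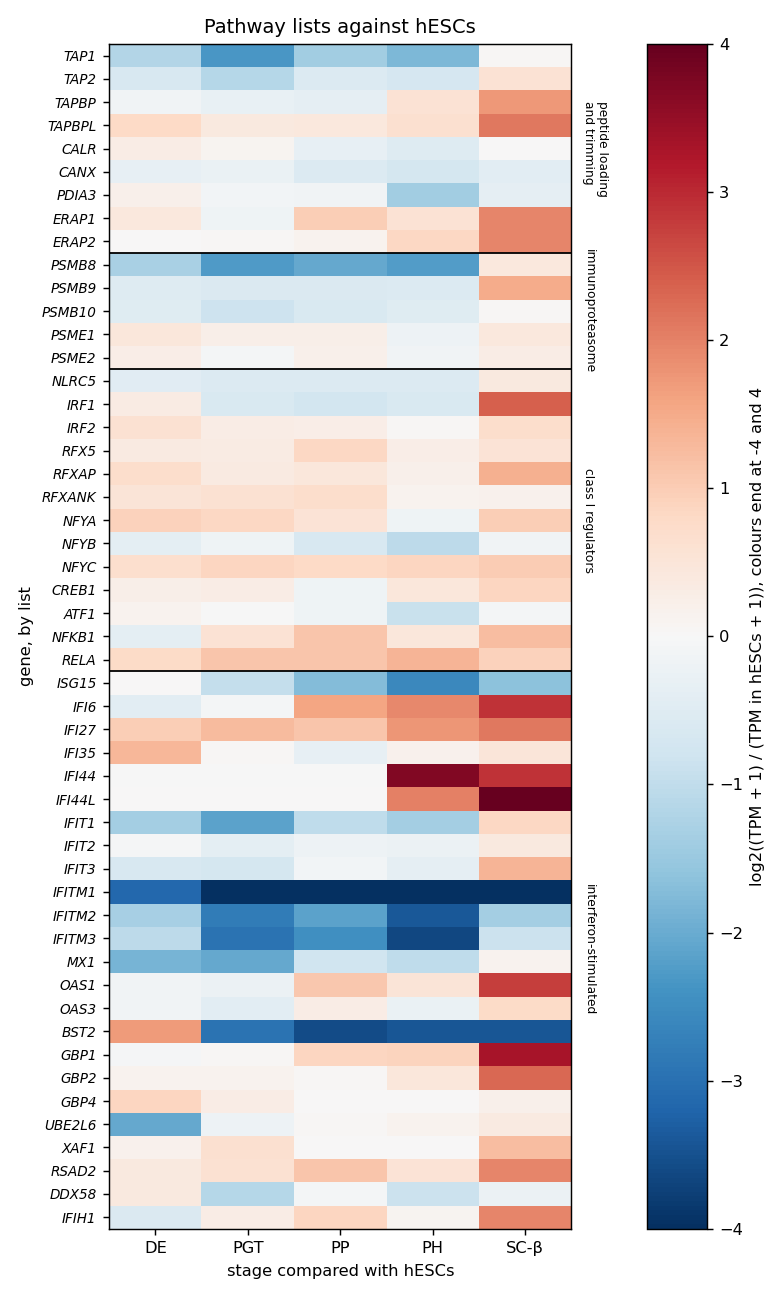
Log2 ratio to hESCs (pseudocount 1 TPM; colour, ends at -4 and 4) of the loading, immunoproteasome, regulator and interferon-stimulated lists in the 5 stages other than hESCs; PSMB8 is drawn once, and values beyond the ends take the end colour. TAP1 (-2.33) and PSMB8 (-2.26) are low in PGT, and IRF1 (2.39), GBP1 (3.29) and IFI44L (4.10) are high in SC-β organoids, while IFITM1 is low in all 5 stages.

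Markers of other cell types also differed between stages. The 8 mesenchyme markers summed to 84.1 TPM in hESCs, 168 TPM in PP, 955 TPM in PH and 1733 TPM in SC-β organoids, and all 8 were at 1 TPM or more in PP, PH and SC-β organoids. The 5 liver-type endoderm markers summed to 3.79 TPM in hESCs, 34.6 TPM in DE and 1270 TPM in PGT. Their sum was 153 TPM in PP, 47.2 TPM in PH and 1430 TPM in SC-β organoids. TTR alone gave 943 TPM of it in PGT and 1229 TPM in SC-β organoids. The 8 leukocyte markers summed to at most 8.84 TPM in the other 5 stages and to 69.6 TPM in SC-β organoids, of which LYZ gave 65.9 TPM. LYZ and CD68 (1.90 TPM) were at least 2-fold above hESCs there, 2 of 8 against 40.0% of all names. The number below was 0, against 7.05% of all names. PTPRC was at 0.0451 TPM and CD3E at 0. The 6 endothelial markers summed to 200 TPM in DE, of which VWF gave 191 TPM, and to between 3.02 and 54.2 TPM elsewhere. The part of these cell types in the levels of the class I genes was not tested.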

How the data were processed

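Total RNA of 12 samples, 2 at each of 6 stages, was sequenced by the authors, aligned to hg38 with HISAT2 (version 2.2.0) and converted with StringTie (version 2.1.6). The deposited values are TPM, averaged by the authors over the 2 samples of a stage. The annotation is not given in the sources used here, and the study's methods name ribosomal RNA removal whereas the labels name an mRNA kit. The table has 50451 entries under 49085 names; entries of the 231 repeated names were summed. Log2 ratios used a pseudocount of 1 TPM, the calls a 2-fold threshold, and the background the names with a mean of 1 TPM or more. No count test could be run on means. The calculations were tested on simulated data. Positions are from GENCODE version 44 on hg38, and promoters from RefSeq (GRCh38.p14), aligned with Biopython 1.88. Python 3.11.15, numpy 2.4.6, pandas 2.3.3 and matplotlib 3.10.9 were used.

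The members, gene lists and rules were chosen with earlier results of these data known. Named were all 9 members and, from each list, the most abundant gene and those with the largest and smallest log2 ratio to hESCs in SC-β organoids and in PH among names with a mean of 1 TPM or more; other list genes named were chosen after their values were seen. IFNL1 was not found under that name, and 1 gene of the interferon signalling list is not reported here and was left out of its counts. Alternatives were a pseudocount of 0.1 TPM, a 4-fold threshold, the preceding stage as reference, the highest entry of a repeated name, other name filters, Spearman's rho, and 3 rescalings: by median ratio over 13938 names, without structural RNAs, and without the 100 most abundant names. The rescalings of the wider lists were added after the data were seen.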

Additional observations from a re-analysis of the deposited data

How the results depend on the processing

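The share of all names past the threshold was not computed at the settings below, so these counts have no background. The number of class I genes at least 2-fold below hESCs with a pseudocount of 0.1 TPM became 4 in each of DE, PGT and PP but 1 for SC-β organoids. The genes so added were among HLA-G, PSMB9 and NLRC5, which are not among the background names. The median log2 ratio of PH was then -1.61. Without the 100 most abundant names the number below hESCs was 4 in both PGT and PP, and 1 for SC-β organoids. Under median-ratio rescaling DE had 1 gene above hESCs, and SC-β organoids had 1 below. In PH against PP, 1 gene (TAPBP) was 2-fold higher with the pseudocount of 0.1 TPM and under each of the 3 rescalings. With the preceding stage as reference (PP was assumed for PH, whose place in the order is not known), 1 gene was 2-fold lower in PH, the median in SC-β organoids was 0.95, and the log2 ratios in PP reversed to -1.49 for HLA-C and 0.93 for TAP1, by the change of reference. At 4-fold, against hESCs, 0 genes were above and 0 below in DE, 1 was above in PGT, 0 were below in PP and PH and 0 above in SC-β organoids; against PP, 0 were below in PH and 2 above in SC-β organoids. Taking the highest entry changed no value of the members, since none is repeated. Where not stated above, the cause was not tested.

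No paired analysis was possible because the table gives a single mean per stage, and leaving out a replicate was not possible for the same reason. Means without spread, unknown depth, shared reads among HLA genes and the fixed TPM total limit every value; levels under 1 TPM, as for PSMB9, NLRC5 and HLA-G, depend most on the pseudocount.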

Other observations

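Other molecules read by immune cells were listed apart from the class I genes above, as values. MICB, a stress ligand of the NKG2D receptor, was at 20.3 TPM in hESCs, 5.05 TPM in DE, 0.553 TPM in PGT, 2.92 TPM in PP, 0.141 TPM in PH and 0.0304 TPM in SC-β organoids, and it was at least 2-fold below hESCs in each of the other 5 stages. FCGRT, the class I-like chain of the neonatal Fc receptor, which also pairs with B2M, was at 6.12 TPM in hESCs, 18.7 TPM in PH and 27.6 TPM in SC-β organoids. HLA-F was at 2.57 TPM in hESCs, 0.327 TPM in PGT and 2.79 TPM in SC-β organoids. Of the 10 genes of this list, 2 were 2-fold above hESCs in SC-β organoids (ULBP3 and FCGRT) and 1 below (MICB), against 40.0% and 7.05% of all names.

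MHC class II genes, which present peptides to CD4+ T cells, were low but not all at 0. CD74, the invariant chain, was at 13.5 TPM in hESCs, 28.6 TPM in PP and 4.88 TPM in PH, and HLA-DRB1 ranged from 0.664 TPM in PH to 19.9 TPM in DE, while HLA-DRA, its partner chain, was at most 0.926 TPM, in hESCs. Of 10 class II genes, 3 were 2-fold above hESCs in PP (HLA-DPA1, HLA-DMB and CD74) and 0 below, against 17.2% and 7.75% of all names. In PH, 3 were below hESCs (HLA-DRB1, HLA-DMA and CD74) and 1 above (CIITA), against 17.1% and 23.4%, and 6 of 10 were 2-fold below PP and 0 above, against 12.2% and 8.81%.

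MIR6891, a microRNA gene at chr6:31355224-31355316 that lies in an intron of HLA-B on the same strand, was at 1.33 TPM in hESCs, 3.09 TPM in DE, 10.0 TPM in PGT, 0.635 TPM in PP, 0.842 TPM in PH and 0.237 TPM in SC-β organoids, highest in PGT like HLA-B. The class I pseudogene HLA-H was at 4.47 TPM in hESCs, 17.4 TPM in DE and 15.2 TPM in PGT. It was at 10.7 TPM in PP, 5.34 TPM in PH and 15.2 TPM in SC-β organoids, so it did not stand out in PGT. MIR6891 and HLA-H were chosen after their values were seen.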
